A study of Mus musculus with 8 samples.

Results

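Integrins, laminins and nidogens make up the cell-matrix contact that anchors a fibroblast to a basement membrane or to scar matrix. Integrins are surface receptors built from 1 alpha and 1 beta chain. Laminins are secreted trimers of 1 alpha, 1 beta and 1 gamma chain that polymerise into the basement membrane, and nidogens bridge the laminin network to type IV collagen. In the heart, laminin sheets surround each cardiomyocyte and vessel, while fibroblasts that enter an infarct bind fibronectin and fibrillar collagen through other integrins. The genes described here are the 39 protein-coding genes, of 54532 genes listed, whose symbols name an integrin alpha chain, an integrin beta chain, a laminin chain or a nidogen.

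The cells were MICFs, cardiac fibroblasts taken from the infarcted area of C57BL/6 mouse hearts on Day 6 after myocardial infarction (MI), and carried the genotype label MGTMyoS overexpression. Every group shared the same lentiviral cargo, a doxycycline-inducible set of Mef2c, Gata4, Tbx5 (MGT), Myocd and Sall4 together with eGFP, and every group received doxycycline. For the *in vivo* samples the cells had been injected into the left ventricle of C57BL/6 mice (8-week-old males by the study's methods) directly after coronary ligation, the hosts were given tacrolimus, methylprednisolone and mycophenolate mofetil, and eGFP+ cells were sorted from the hearts on Days 7 and 14. The *in vitro* samples stayed in culture for the same times. The study's results describe them as sorted on eGFP too, while its methods name sorted eGFP+ cells and cultured cells. The reprogramming medium given in the methods held the TGF-β receptor inhibitor SB431542 and the JAK inhibitor baricitinib. There were 2 libraries in each of the 4 groups (*in vivo* and *in vitro*, 1 week and 2 weeks). How many animals or wells stand behind a library is not given in the sources used here, so a p-value measures only the spread between these samples, which may be technical.

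Expression is given as FPKM, fragments scaled to gene length and to library size, as deposited. Each library held 12304242 to 14546904 fragments on genes, and 1 fragment on a gene of 1 kb was worth an FPKM of 0.0650 to 0.0905. Levels were set side by side between genes because FPKM is per gene length, but within limits. The deposited length takes in all exonic bases of the gene model, 18599 for *Itga1*, and can exceed that of the transcripts present. Shares, ratios and ranks between genes are therefore those of FPKM. On the gene models 14 members share exonic bases with another gene, up to 68.7% of their bases. How fragments on shared bases were counted is not given in the sources used here. Of the 39 genes, 34 reached 0.5 FPKM in 2 or more libraries and were tested along with the rest of the 15708 genes that passed. The other 5 were *Itgad* (0 to 3 fragments per library), *Itgae* (0 to 5), *Itgb6* (0 to 10), *Lama1* (8 to 43) and *Lama3* (14 to 36), which therefore stayed at or below an FPKM of 0.289. Fold changes are differences of log2(FPKM + 0.1), which understate the change of a low gene. A gene was called when limma gave a Benjamini-Hochberg adjusted p below 0.01 over all tested genes and a log2 change beyond 1 in either direction.

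Both nidogens, 3 laminin alpha chains, 3 integrin alpha chains and 1 integrin beta chain were called between *in vivo* and *in vitro* samples at each week. *Nid1*, *Lama2*, *Lama4*, *Itga11* and *Itgb7* were called higher *in vivo* at each week, and *Nid2*, *Lama5*, *Itga3* and *Itga8* were called lower at each week. *Itgb1*, the beta chain shared by most matrix-binding integrins and the most abundant member, was not called at either week. At 1 week 9 of the 34 tested members were called higher and 4 lower, 38.2% of those tested, where 12.9% of all tested genes were called (7.79% higher and 5.07% lower). At 2 weeks 9 were called higher and 5 lower, 41.2% of those tested, against 17.1% of all tested genes (9.02% higher and 8.05% lower). In all, 9 members were called at both weeks, and 18 were called at 1 week, at 2 weeks or at both. Neither total was counted over all tested genes. The median log2 fold change of the tested members was 0.35 at 1 week and 0.34 at 2 weeks, and that of all tested genes was -0.01 and -0.00. The split between higher and lower calls at 1 week depended on the scaling of the libraries, with 6 higher and 6 lower without the scaling that the deposited values carry and 7 higher and 5 lower after quantile normalization. Of all 15708 tested genes, 906 were called higher and 1558 lower without that scaling, and 1139 higher and 941 lower after quantile normalization. Leaving that scaling out shifted the all-gene median, on the log2 scale, to -0.34 (1 week) and -0.32 (2 weeks).

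**Figure D1:**
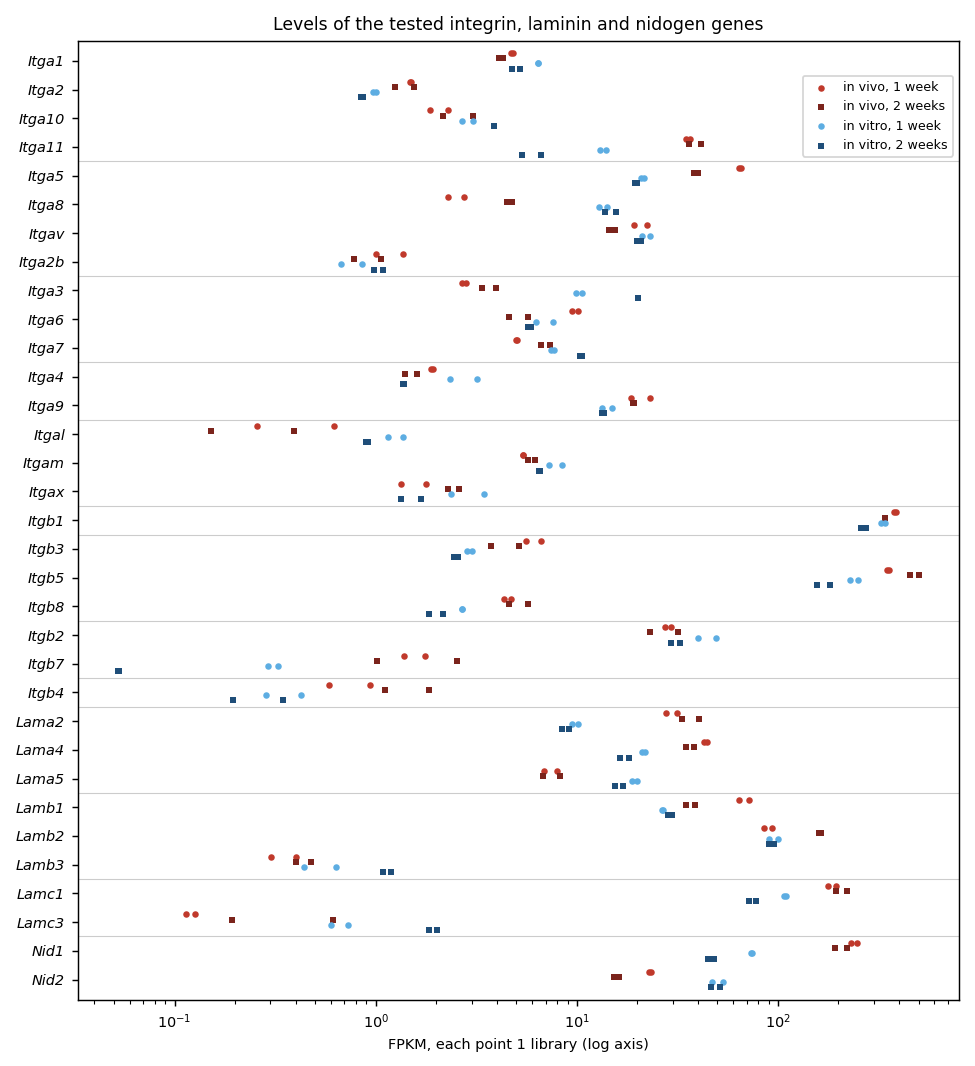
Deposited FPKM (log axis) of 33 of the 34 tested integrin, laminin and nidogen genes, each point 1 library, with circles for 1 week and squares for 2 weeks, red for *in vivo* and blue for *in vitro*. *Itgb1* and *Itgb5* lie at the right with mean levels of 331 and 310 FPKM over the 8 libraries, and the red and blue points of *Nid1* and *Nid2* are apart in opposite directions.

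Promoter sequences are shown for 4 genes called at both weeks, 2 higher (*Nid1*, *Itga11*) and 2 lower (*Itga3*, *Lama5*) *in vivo*, picked after their values were seen. They come from RefSeq on GRCm38.p6, run 5′ to 3′ on the gene's own strand, begin 250 bases before a RefSeq start and stop before the deposited gene model begins. Capitals mark matches to any of 9 short motifs, on either strand.
Nid1, chr13:13437352-13437550, plus strand: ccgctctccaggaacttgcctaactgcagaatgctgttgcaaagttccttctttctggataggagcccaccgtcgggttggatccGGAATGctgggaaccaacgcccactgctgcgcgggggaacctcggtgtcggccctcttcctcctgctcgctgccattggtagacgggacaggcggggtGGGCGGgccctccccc
Itga11, chr9:62677605-62677825, plus strand: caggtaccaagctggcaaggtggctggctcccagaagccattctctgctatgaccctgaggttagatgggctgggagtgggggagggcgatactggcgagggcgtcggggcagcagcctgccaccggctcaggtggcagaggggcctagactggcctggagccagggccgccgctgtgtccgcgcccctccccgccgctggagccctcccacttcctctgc
Itga3, chr11:95076802-95076964, minus strand: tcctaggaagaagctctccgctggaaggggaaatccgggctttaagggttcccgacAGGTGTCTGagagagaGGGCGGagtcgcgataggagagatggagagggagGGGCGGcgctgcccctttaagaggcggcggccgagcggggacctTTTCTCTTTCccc
Lama5, chr2:180225860-180226109, minus strand: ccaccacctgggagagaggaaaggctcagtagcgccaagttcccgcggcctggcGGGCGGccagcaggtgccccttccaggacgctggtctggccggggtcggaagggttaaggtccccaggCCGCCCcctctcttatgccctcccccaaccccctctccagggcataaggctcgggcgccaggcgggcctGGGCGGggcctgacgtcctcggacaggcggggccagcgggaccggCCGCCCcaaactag
In the printed stretch of *Nid1* the capitals are a TEAD motif (CATTCC, here on the opposite strand) and a GC box (GGGCGG). The stretch of *Itga11* holds none of the 9 motifs. That of *Itga3* holds a T-box motif (AGGTGT) whose last letters overlap a SMAD motif (CAGACA) on the other strand, then 2 GC boxes and an interferon-response motif (GAAA, any 2 bases, GAAA). *Lama5* has 4 GC boxes and no other match.

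Those matches have to be read against how common such short words are. Of 32851 mouse promoters of the same 250 bases, 32.7% held the GC box, 17.1% SMAD, 12.6% TEAD, 11.8% T-box and 2.98% the interferon-response motif. RefSeq entries were found for 24 of the 39 members, with 27 promoters between them. Among these 27 the GC box occurred in 10, SMAD in 7, TEAD in 4, T-box in 3 and the interferon-response motif in 2. The GATA factor motif (AGATAA) was in 1 member promoter and in 9.99% of all promoters. AP-1 (TGANTCA) was in 1, against 6.75% of all. MEF2 (CTA and TAG with any 4 bases between them) was in 0, against 3.20%, and the TATA box (TATAAA) in 0, against 12.4%. A match is a run of letters and says nothing on whether a factor binds.

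The 2 nidogens moved in opposite directions. *Nid1* (ENSMUSG00000005397, GRCm38 chr13:13437551-13512269, plus strand) encodes nidogen 1, the main link between laminin gamma 1 and type IV collagen. Its FPKM *in vivo* was 231 and 247 at 1 week and 220 and 193 at 2 weeks, and in culture 73.8 and 74.1 at 1 week, then 48.3 and 44.9 at 2 weeks. The lowest *in vivo* value was far over the highest *in vitro* value. On the log2 scale the excess *in vivo* was 1.69 ± 0.08 (SE, n = 2 per group) after 1 week and 2.15 ± 0.08 after 2 weeks, 3.23-fold and 4.43-fold, with limma adjusted p = 1.1e-05 and 3.4e-06. *Nid2* (ENSMUSG00000021806, chr14:19751265-19811787, plus strand) encodes nidogen 2, which shares the same binding partners. It read 23.4 and 22.8 FPKM *in vivo* and 47.3 and 53.1 in culture at 1 week, and 15.4 and 16.2 *in vivo* and 51.3 and 46.3 in culture at 2 weeks. The groups did not overlap, and the order was the reverse of that of *Nid1*. Its log2 fold change came to -1.11 ± 0.08 after 1 week and -1.62 ± 0.08 after 2 weeks (limma adjusted p = 7.0e-05 and 1.1e-05). On the gene models, 8.45% of the exonic bases of *Nid2* lie over exons of *Rtraf* on the opposite strand (mean FPKM 46.2), and whether counting used strand is not given in the sources used here.

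Within the nidogen pair the composition therefore differed by condition. *Nid1* supplied 90.8% and 91.5% of the summed nidogen FPKM in the *in vivo* libraries of 1 week and 93.5% and 92.3% in those of 2 weeks. In culture its share was 61% and 58.2% at 1 week, then 48.5% and 49.2% at 2 weeks. The ratio of *Nid1* to *Nid2* ran from 9.88 to 14.4 *in vivo* and from 0.941 to 1.56 *in vitro*. The sum of both was 209 to 270 FPKM *in vivo* and 91.2 to 127 FPKM *in vitro*. Such shares are ratios within a library and are given as a description.

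The laminin alpha chain decides which receptors a laminin trimer binds. *Lama2* (ENSMUSG00000019899, chr10:26980036-27619758, minus strand) encodes the alpha 2 chain of the laminin of muscle and nerve basement membranes. Its FPKM *in vivo* was 27.8 and 31.5 at 1 week and 40.7 and 33.2 at 2 weeks, and in culture 9.51 and 10.1 at 1 week and 9.16 and 8.40 at 2 weeks. Every *in vivo* library was above every *in vitro* library, by 1.58 ± 0.11 after 1 week and 2.05 ± 0.11 after 2 weeks on the log2 scale (limma adjusted p = 7.0e-05 and 1.7e-05). *Lama4* (ENSMUSG00000019846, chr10:38965515-39110188, plus strand) encodes the alpha 4 chain, found around vessels and in mesenchymal cells. It was at 42.8 and 44.4 FPKM *in vivo* and 21.2 and 21.9 in culture at 1 week, and at 38.1 and 35.0 *in vivo* and 18.3 and 16.3 in culture at 2 weeks. The groups were apart at both weeks, by 1.01 ± 0.08 after 1 week and 1.08 ± 0.08 after 2 weeks on the log2 scale (limma adjusted p = 8.2e-05 and 4.8e-05). Its calls sat at the fold threshold, and leaving out any 1 of 3 libraries (*in vivo* 1w replicate 2, *in vitro* 1w replicate 1 or *in vitro* 2w replicate 2) brought the value of that week to 0.99, 0.99 or 1.00 and ended the call.

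*Lama5* (ENSMUSG00000015647, chr2:180176373-180225859, minus strand) encodes the alpha 5 chain, the common alpha chain of epithelial and mature vessel basement membranes. It read 6.88 and 7.97 FPKM *in vivo* and 18.8 and 19.9 in culture at 1 week, and 8.25 and 6.80 *in vivo* and 16.9 and 15.6 in culture at 2 weeks. The *in vivo* libraries were the lower ones throughout. Log2 fold changes of -1.37 ± 0.12 after 1 week and -1.10 ± 0.12 after 2 weeks were called (limma adjusted p = 0.00014 and 0.00031), and the value at 2 weeks was -0.97 without *in vivo* 2w replicate 2, which ended that call. The share of *Lama5* in the summed alpha chain FPKM was 8.84% to 9.46% in the 4 *in vivo* libraries and 37.7% to 38.4% in the 4 *in vitro* libraries. *Lama2* held 35.7% and 37.4% *in vivo* at 1 week, 46.5% and 44.0% *in vivo* at 2 weeks, and 19.1% to 20.7% in culture. *Lama4* was the most abundant alpha chain in every library except the *in vivo* 2w replicate 1, where *Lama2* was. *Lama1* and *Lama3* together stayed marginal, each at 0.579% or less.

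Of the beta chains, *Lamb1* was called higher *in vivo* at 1 week only, and its difference changed between the weeks. *Lamb1* (ENSMUSG00000002900, chr12:31265234-31329644, plus strand) encodes beta 1, the chain of embryonic and growing tissue, and *Lamb2* (ENSMUSG00000052911, chr9:108479736-108490530, plus strand) encodes beta 2, enriched at the neuromuscular junction and in mature vessel walls. *Lamb1* was at 64.4 and 72.0 FPKM *in vivo* and 26.4 and 26.8 in culture at 1 week, and at 38.5 and 35.0 *in vivo* and 29.9 and 28.3 in culture at 2 weeks. The *in vivo* libraries were higher at each week, widely at 1 week and narrowly at 2 weeks. Its log2 fold change was 1.35 ± 0.08 at 1 week, which was called, and 0.33 ± 0.08 at 2 weeks, which was not (limma adjusted p = 2.7e-05 and 0.011). The change between the weeks was itself called, at -1.02 ± 0.11 (limma adjusted p = 0.0048), and with 1 library left out it ran from -1.10 to -0.94 (limma adjusted p 0.0094 to 0.024) and was lost without any 1 of 7 libraries. *Lamb2* read 85.2 and 93.8 FPKM *in vivo* and 90.3 and 100.1 in culture at 1 week, and 163 and 160 *in vivo* and 95.5 and 89.9 in culture at 2 weeks. Its groups overlapped at 1 week (log2 fold change -0.09, 95% confidence interval -0.27 to 0.09) and were apart at 2 weeks at 0.80 ± 0.08, a size under the fold threshold (limma adjusted p = 0.00020). *In vivo*, *Lamb2* at 2 weeks was above *Lamb2* at 1 week by 0.85 ± 0.08 and *Lamb1* below by -0.89 ± 0.08 on the log2 scale, with limma adjusted p = 0.0014 and 0.0013, and neither reached the fold threshold. The share of *Lamb1* in the summed beta chain FPKM was 42.9% and 43.4% *in vivo* at 1 week, 19.1% and 17.9% *in vivo* at 2 weeks, and 21.0% to 23.7% in culture.

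*Lamc1* (ENSMUSG00000026478, chr1:153218922-153332786, minus strand) encodes gamma 1, the gamma chain of nearly all basement membrane laminins. It had 178 and 193 FPKM *in vivo* and 108 and 110 in culture at 1 week, and 220 and 195 *in vivo* and 77.8 and 71.8 in culture at 2 weeks. The groups did not overlap at either week, and the log2 fold change of 0.77 ± 0.08 at 1 week was under the threshold while 1.47 ± 0.08 at 2 weeks was called (limma adjusted p = 0.00043 and 1.8e-05). *Lamc3*, a gamma chain of low and local expression, had 0.126 and 0.113 FPKM *in vivo* and 0.597 and 0.725 in culture at 1 week, and 0.611 and 0.193 *in vivo* and 2.02 and 1.84 in culture at 2 weeks. Its *in vivo* libraries were lower, with a call at 2 weeks only (-2.15 ± 0.43, limma adjusted p = 0.0057). At 1 week its value was -1.79 ± 0.43 (limma adjusted p = 0.015), and the call at 2 weeks was lost without any 1 of 7 libraries (-2.21 to -1.51, limma adjusted p 0.010 to 0.039). *Lamb3*, the third beta chain, stayed between 0.302 and 1.19 FPKM and was not called.

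**Figure D2:**
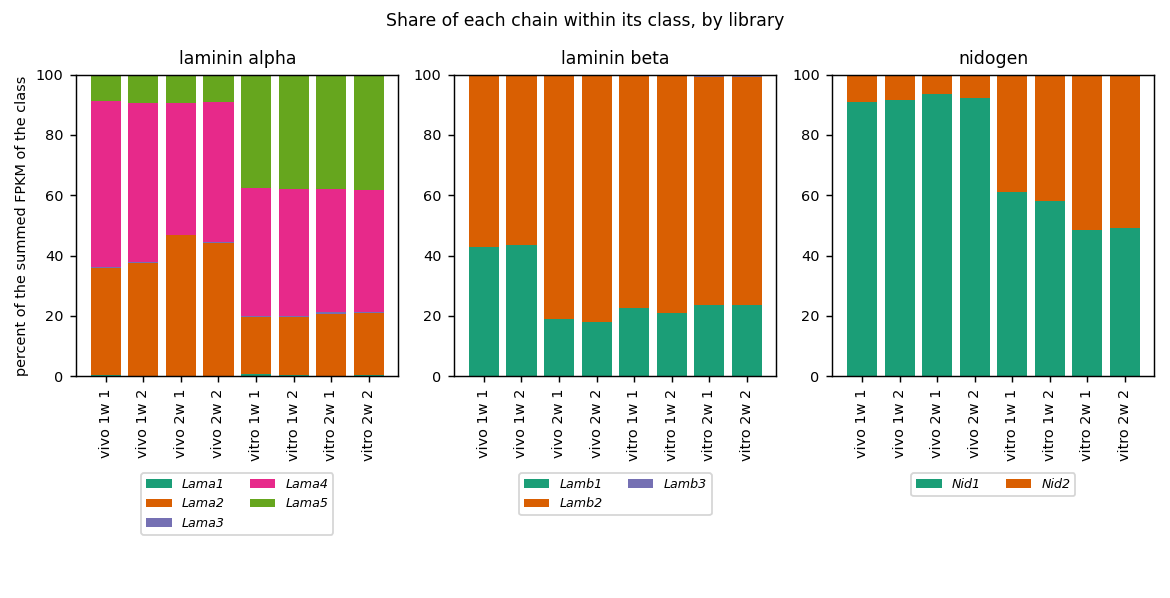
Share (percent) of each laminin alpha chain, laminin beta chain and nidogen in the summed FPKM of its class for the 8 libraries, 4 *in vivo* on the left of each panel and 4 *in vitro* on the right. The green *Lama5* block covers 8.84% to 9.46% of the alpha chains *in vivo* and 37.7% to 38.4% *in vitro*, and the *Nid2* block is the larger one only in the 2 *in vitro* libraries of 2 weeks.

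Among the integrins that bind collagen, *Itga11* was called and its relatives were not. *Itga11* (ENSMUSG00000032243, chr9:62677826-62783982, plus strand) encodes the alpha 11 chain, the fibrillar collagen receptor of fibroblasts. It was at 35.1 and 36.4 FPKM *in vivo* and 14.0 and 13.1 in culture at 1 week, and at 41.4 and 36.0 *in vivo* and 5.31 and 6.65 in culture at 2 weeks. The *in vivo* values exceeded every *in vitro* value, and the cultures of 2 weeks were the lowest. *Itga11* exceeded culture by 1.39 ± 0.12 after 1 week and 2.68 ± 0.12 after 2 weeks on the log2 scale, 2.63-fold and 6.40-fold (limma adjusted p = 0.00014 and 6.3e-06). The widening between the weeks was called at 1.28 ± 0.17 (limma adjusted p = 0.0074), but that call was lost without any 1 of the 8 libraries (1.12 to 1.44, limma adjusted p 0.013 to 0.035). In culture *Itga11* fell by 1.17 ± 0.12 on the log2 scale from 1 week to 2 weeks (limma adjusted p = 0.0012), a call that was lost without *in vitro* 1w replicate 1 (-1.13, limma adjusted p = 0.012), and *in vivo* it moved by 0.11 ± 0.12 (95% confidence interval -0.17 to 0.39). The other collagen-binding chains, *Itga1* (4.13 to 6.45 FPKM), *Itga2* (0.845 to 1.55) and *Itga10* (1.86 to 3.89), were not called at either week. Of the exonic bases of *Itga10*, 33.5% lie over exons of *Gm42957* on the same strand (mean FPKM 0.0130). The ratio of *Itga11* to *Itga1* was 7.49 to 9.61 *in vivo* and 1.12 to 2.18 *in vitro*.

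Of the chains that recognise the RGD tripeptide of fibronectin and related ligands, *Itga5* and *Itga8* differed in opposite directions. *Itga5* (ENSMUSG00000000555, chr15:103344286-103366763, minus strand) encodes alpha 5, which with beta 1 forms the main fibronectin receptor. It read 64.3 and 65.8 FPKM *in vivo* and 20.9 and 21.5 in culture at 1 week, and 39.9 and 38.5 *in vivo* and 19.9 and 19.6 in culture at 2 weeks. The *in vivo* libraries were higher at each week, and those of 1 week were the highest. It differed by 1.61 ± 0.05 on the log2 scale at 1 week, called, and 0.99 ± 0.05 at 2 weeks, just under the fold threshold (limma adjusted p = 2.4e-06 and 1.5e-05), and at 2 weeks it was 1.01 and called without *in vivo* 2w replicate 2. *Itga8* (ENSMUSG00000026768, chr2:12106632-12301922, minus strand) encodes alpha 8, the receptor for nephronectin found on smooth muscle and mesenchymal cells. It had 2.76 and 2.29 FPKM *in vivo* and 12.9 and 14.2 in culture at 1 week, and 4.76 and 4.52 *in vivo* and 13.9 and 15.6 in culture at 2 weeks. The *in vivo* libraries were lower by 5.22-fold at 1 week and 3.13-fold at 2 weeks, log2 fold changes of -2.38 ± 0.11 and -1.65 ± 0.11 (limma adjusted p = 1.2e-05 and 4.6e-05). *Itgav*, the shared partner of beta 3, beta 5 and beta 8, held a level of 14.5 to 23.3 FPKM and was not called. *Itga2b*, the platelet fibrinogen receptor chain, was at 0.675 to 1.36 FPKM and was not called.

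The laminin-binding alpha chains were *Itga3*, *Itga6* and *Itga7*. *Itga3* (ENSMUSG00000001507, chr11:95044474-95076801, minus strand) encodes alpha 3, a receptor for laminins with an alpha 5 or alpha 3 chain. It was at 2.83 and 2.68 FPKM *in vivo* and 9.90 and 10.7 in culture at 1 week, and at 3.38 and 3.98 *in vivo* and 20.3 and 20.1 in culture at 2 weeks. The *in vivo* libraries were lower by 3.64-fold and 5.38-fold, log2 fold changes of -1.86 ± 0.10 and -2.43 ± 0.10 (limma adjusted p = 1.8e-05 and 4.5e-06). *Itga6*, a general laminin receptor chain, stayed between 4.62 and 10.1 FPKM and *Itga7*, the laminin receptor chain of muscle, between 5.0 and 10.6, and neither was called at either week. *Itga3* was the least abundant of these chains in each *in vivo* library and the most abundant in each *in vitro* library, with a ratio of *Itga6* to *Itga3* of 1.16 to 3.59 *in vivo* and 0.286 to 0.714 *in vitro*. The remaining alpha chains outside the leukocyte group, *Itga4* (1.37 to 3.19 FPKM) and *Itga9* (13.3 to 23.2 FPKM), were not called.

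*Itgb1* (ENSMUSG00000025809, chr8:128685654-128733200, plus strand), the partner of most alpha chains above, was the most abundant member by its mean. It was at 388 and 378 FPKM *in vivo* and 342 and 324 in culture at 1 week, and at 342 and 342 *in vivo* and 260 and 274 in culture at 2 weeks. Its log2 fold change was 0.20 ± 0.06 after 1 week and 0.35 ± 0.06 after 2 weeks, neither called (limma adjusted p = 0.038 and 0.0034), and the direction flipped to -0.52 and -0.15 after quantile normalization and to -0.14 at 1 week without scaling. *Itgb5* (ENSMUSG00000022817, chr16:33829665-33949338, plus strand) pairs with alpha v to bind vitronectin. It read 355 and 348 FPKM *in vivo* and 250 and 228 in culture at 1 week, and 454 and 505 *in vivo* and 157 and 181 in culture at 2 weeks. The groups were apart at each week, with 1.51 ± 0.10 at 2 weeks called (limma adjusted p = 3.1e-05) and 0.56 ± 0.10 at 1 week under the fold threshold (limma adjusted p = 0.0035), a value that was -0.12 after quantile normalization. The *Itgb5* level exceeded that of *Itgb1* in both *in vivo* libraries of 2 weeks, at ratios of 1.33 and 1.48, and was below it in the 6 other libraries, at 0.601 to 0.919.

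*Itgb3* and *Itgb8*, further partners of alpha v, were each called at a single week. *Itgb3*, the vitronectin receptor chain of platelets and activated vessels, had 5.62 and 6.62 FPKM *in vivo* and 2.86 and 3.02 in culture at 1 week, and 5.13 and 3.73 *in vivo* and 2.56 and 2.45 in culture at 2 weeks. It was higher *in vivo* at both weeks, called at 1 week (1.03 ± 0.16, limma adjusted p = 0.0025) and not at 2 weeks (0.78 ± 0.16, limma adjusted p = 0.0068). The call at 1 week was lost without *in vivo* 1w replicate 2, *in vitro* 1w replicate 1 or *in vitro* 1w replicate 2 (0.91 to 1.07, limma adjusted p up to 0.020), and the value at 2 weeks was called, at 1.01, without *in vivo* 2w replicate 2. *Itgb8*, which with alpha v binds latent TGF-β, had 4.72 and 4.36 FPKM *in vivo* and 2.67 and 2.68 in culture at 1 week, and 5.75 and 4.62 *in vivo* and 2.16 and 1.84 in culture at 2 weeks. It was higher *in vivo* at both weeks, under the fold threshold at 1 week (0.74 ± 0.14, limma adjusted p = 0.0053) and called at 2 weeks (1.33 ± 0.14, limma adjusted p = 0.00030). *Itgb4*, the partner of alpha 6 in epithelial hemidesmosomes, was low in every library. It was at 0.584 and 0.941 FPKM *in vivo* and 0.426 and 0.286 in culture at 1 week, and at 1.11 and 1.85 *in vivo* and 0.196 and 0.346 in culture at 2 weeks. It was called at 2 weeks only (2.08 ± 0.39, limma adjusted p = 0.0044), and that call was lost without *in vivo* 2w replicate 2 or either *in vitro* 2w library (1.74 to 2.38, limma adjusted p up to 0.028). The value at 1 week was 0.91 ± 0.39 (limma adjusted p = 0.11).

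**Figure D3:**
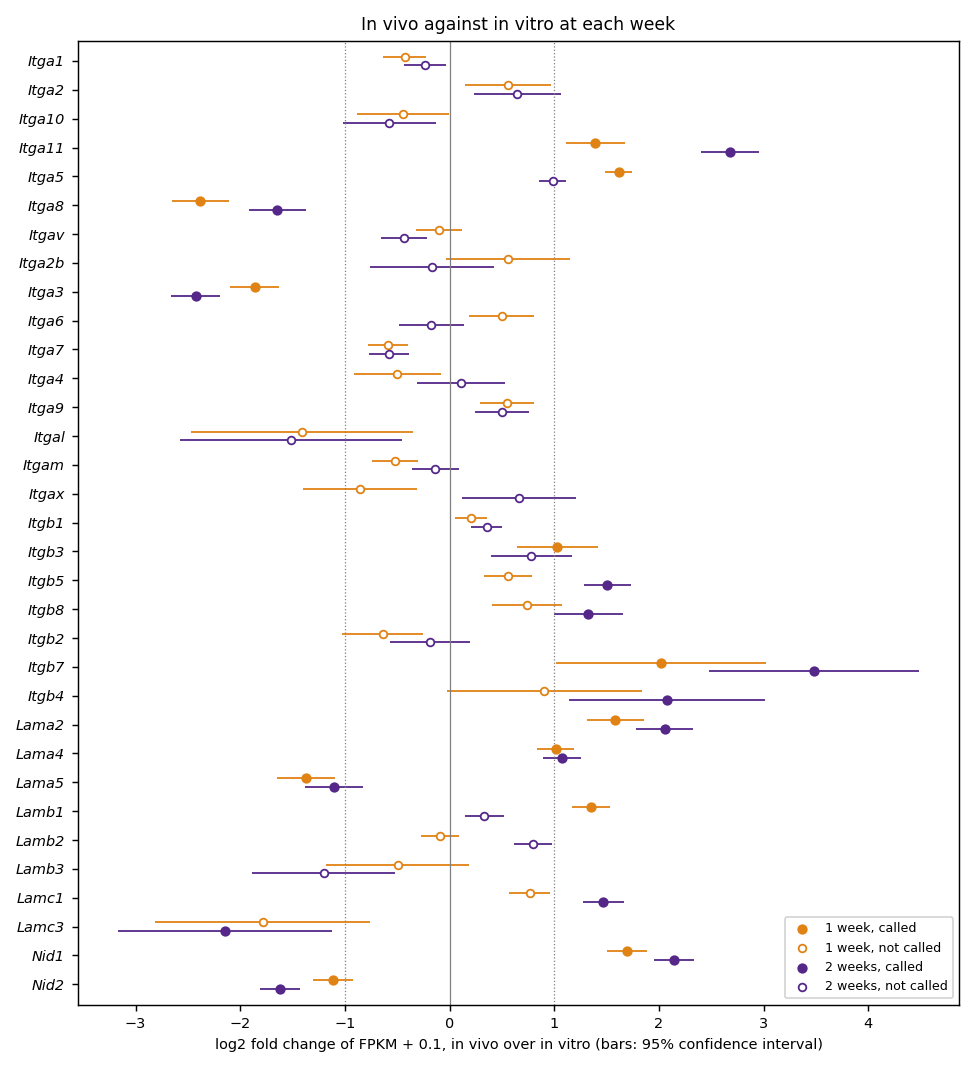
log2 fold change of FPKM + 0.1, *in vivo* over *in vitro*, of 33 of the 34 tested members at 1 week (orange) and 2 weeks (purple), with 95% confidence intervals from limma, filled where called and dotted lines at a log2 change of 1 and -1. The farthest point to the right is *Itgb7* at 3.49 (2 weeks) and the farthest to the left is *Itga3* at -2.43 (2 weeks).

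Of the leukocyte integrins, *Itgb2*, *Itgam*, *Itgax*, *Itgal* and *Itgb7* were measurable, while *Itgad* and *Itgae* had at most 5 fragments in a library. By the study's own description, MICFs as isolated held macrophages beside fibroblasts. *Itgb2* (ENSMUSG00000000290, chr10:77530252-77565708, plus strand), the beta chain of the leukocyte adhesion receptors, was at 29.5 and 27.5 FPKM *in vivo* and 40.1 and 49.3 in culture at 1 week, and at 31.8 and 23.1 *in vivo* and 29.5 and 32.5 in culture at 2 weeks. It was lower *in vivo* at 1 week without a call (-0.64 ± 0.16, limma adjusted p = 0.017), the groups overlapped at 2 weeks (-0.19 ± 0.16), and without *in vivo* 2w replicate 2 that value was 0.04. On the gene models, 68.7% of the exonic bases of *Itgam* lie over exons of *Gm49368* on the same strand (mean FPKM 0.00709), so its level may be understated. *Itgam*, the alpha chain of the macrophage receptor Mac-1, was between 5.42 and 8.41 FPKM, *Itgax* between 1.34 and 3.47 and *Itgal* between 0.152 and 1.37, and none was called at either week. *Itgb7*, the beta chain of lymphocyte gut-homing receptors, was the exception. It had 1.76 and 1.39 FPKM *in vivo* and 0.328 and 0.290 in culture at 1 week, and 2.53 and 1.01 *in vivo* and 0.0522 and 0.0531 in culture at 2 weeks. All *in vivo* libraries were higher, by 2.02 ± 0.42 after 1 week and 3.49 ± 0.42 after 2 weeks on the log2 scale (limma adjusted p = 0.0082 and 0.00058). The value at 2 weeks rests on 110 fragments *in vivo* against 4 in culture, a ratio of 33.8 with a counting interval of 12.8 to 126, and the call at 1 week was lost without any 1 of 6 libraries (limma adjusted p up to 0.054). Its alpha partners were low, with *Itga4* at 1.37 to 3.19 FPKM and *Itgae* at 0 to 0.0838 FPKM.

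Over time few members passed the fold threshold, although others had smaller changes at a limma adjusted p below 0.01. In culture *Itga11* alone was called between the weeks, 1 of 34 tested members, where 3.81% of all tested genes were called (2.76% higher and 1.05% lower). The median log2 change in culture was -0.23 over the members against 0.02 over all tested genes. *Itga3*, *Itga7*, *Lamc1* and *Nid1* also had a limma adjusted p below 0.01 in culture, at 0.97, 0.46, -0.54 and -0.67. *In vivo* 0 of 34 were called by limma, against 2.18% of all tested genes (1.23% higher and 0.949% lower). There limma voom on the recovered fragments called 0 members and 502 of the 15708 tested genes. At a limma adjusted p below 0.01 alone, *Itga8* (0.86) and *Lamb2* (0.85) were higher and *Itga5* (-0.73), *Itga6* (-0.92), *Lamb1* (-0.89) and *Nid2* (-0.55) lower *in vivo* at 2 weeks than at 1 week. The difference of the *in vivo* effect between the weeks was called for *Itga11* (wider at 2 weeks) and *Lamb1* (narrower at 2 weeks). That was 2 of 34 members, against 1.73% of all tested genes (0.573% with a positive and 1.15% with a negative difference). For a gene lower *in vivo*, a positive difference is a narrowing. *Itga5*, *Lamb2* and *Itgb5* had a limma adjusted p below 0.01 for that difference, at -0.63, 0.89 and 0.95 on the log2 scale, and stayed under the fold threshold. How many of all tested genes had a limma adjusted p below 0.01 alone was not counted. The percentages above use the fold threshold too and are no background for the members listed by adjusted p alone. These 5 comparisons share libraries and are not independent of each other.

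Cell type markers were read in the same libraries, since in bulk RNA fewer cells of a type and less RNA per cell cannot be told apart. The 10 fibroblast markers summed to 10904 to 14759 FPKM *in vivo* and 2329 to 3775 FPKM *in vitro*, with 7 of 10 called higher *in vivo* at each week. Those 7 were the matrix genes *Col1a1*, *Col1a2*, *Col3a1*, *Dcn*, *Lum*, *Postn* and *Fn1*. *Pdgfra*, *Tcf21* and *Thy1* were not called at either week. The 12 mesothelial and epithelial markers, of which 9 were tested, summed to 19.4 to 39.7 FPKM *in vivo* and 259.9 to 587.5 FPKM *in vitro*, and 8 were called lower and 1 (*Krt14*) higher *in vivo* at each week. *Itga3*, *Itga8*, *Lama5*, *Lamc3* and *Nid2* were likewise lower *in vivo*. In culture the sum went from 259.9 and 271.0 at 1 week to 576.8 and 587.5 at 2 weeks, where log2 changes were 0.97 for *Itga3*, 1.42 for *Lamc3*, 0.12 for *Itga8*, -0.04 for *Nid2* and -0.25 for *Lama5*. The part of these cells in the results was not tested. The 12 endothelial markers summed to 121.9 to 132.0 FPKM *in vivo*, 28.4 and 29.3 in culture at 1 week and 65.1 and 76.3 in culture at 2 weeks, with 10 called higher at 1 week and 6 at 2 weeks. The 8 mural markers summed to 179.8 to 227.9 FPKM *in vivo* and 164.1 to 178.3 *in vitro*, with 5 of them higher and 1 lower after 1 week, then 2 higher and 3 lower after 2 weeks. The fibroblast and endothelial sums were higher *in vivo*, as were *Nid1*, *Lama2* and *Lama4*. From 1 week to 2 weeks the fibroblast sum in culture was lower (3639 and 3775, then 2329 and 2346) and the endothelial sum in culture was higher, while *Nid1* in culture was lower at 2 weeks by 0.67 on the log2 scale (limma adjusted p = 0.0023, under the fold threshold). The part of either sum in those results was not tested.

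Blood cell markers were present in every group. The 20 macrophage and myeloid markers summed to 2168 to 3487 FPKM *in vivo* and 5329 to 6538 FPKM *in vitro*. Of 19 tested, 3 were called higher and 1 (*Lyz2*) lower after 1 week, then 2 higher and 8 lower after 2 weeks. The median log2 fold change of those tested was -0.27 at 1 week and -0.84 at 2 weeks. The part of these markers' cells in the levels of *Itgb2*, *Itgam* and *Itgax* was not tested. The 12 lymphocyte markers summed to 5.03 and 5.38 FPKM *in vivo* and 2.65 and 3.38 in culture at 1 week, and to 2.64 and 3.09 *in vivo* and 2.51 and 3.09 in culture at 2 weeks, with 1 of 4 tested (*Cd4*) called, lower at 2 weeks. *Itgb7* was called higher at 2 weeks too, where the ranges of this sum overlapped, and the part of lymphocytes in the *Itgb7* level was not tested. The 8 platelet and megakaryocyte markers summed to 52.8 to 85.6 FPKM *in vivo* and 67.3 to 90.3 FPKM *in vitro*, and 1 of 4 tested (*Treml1*) was called, lower at 1 week. The 7 Schwann cell markers summed to 8.51 to 15.8 FPKM *in vivo* and 8.12 to 10.6 FPKM *in vitro*, with 2 of 4 tested higher and 1 lower after 1 week, then 3 higher and 1 lower after 2 weeks. The 10 cardiomyocyte markers summed to 16.4 to 48.1 FPKM *in vivo*, 165.8 and 188.3 in culture at 1 week and 1034 and 1228 in culture at 2 weeks, with 7 of 9 tested lower and 1 (*Pln*) higher after 1 week, then 8 lower and 1 higher after 2 weeks.

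The partners and ligands of these receptors showed which matrix was expressed alongside them. Of 25 basement membrane partners, 24 were tested, with 11 called higher and 3 lower after 1 week, then 7 higher and 2 lower after 2 weeks, and median log2 fold changes of 0.98 and 0.68. That is 58.3% and 37.5% of those tested, beside 12.9% and 17.1% of all tested genes. *Col15a1*, a basement membrane collagen of the vessel wall and of muscle, was at 211 ± 18.1 FPKM (SD, n = 2) *in vivo* and 34.6 ± 0.454 in culture at 1 week, then 197 ± 11.4 and 23.3 ± 1.87 at 2 weeks. The other largest rises were *Vwa1* (2.75 at 1 week and 1.79 at 2 weeks on the log2 scale) and *Smoc2* (2.27 and 2.38), both secreted matrix proteins. The falls called at both weeks were *Fras1* (-1.15 and -2.30), an epithelial basement membrane protein, and *Npnt* (-1.88 and -1.18). *Npnt* encodes nephronectin, the ligand of alpha 8 beta 1, and its level was 3.19 ± 0.0128 FPKM *in vivo* and 12.1 ± 1.45 in culture at 1 week and 4.24 ± 0.0150 and 9.73 ± 0.140 at 2 weeks, lower *in vivo* like *Itga8*.

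Of 32 non-collagen integrin ligands, 31 were listed and 24 tested, with 15 called higher and 1 lower after 1 week, then 14 higher and 2 lower after 2 weeks. At each week 66.7% of those tested were called, beside 12.9% (1 week) and 17.1% (2 weeks) of all tested genes. Their median was 1.24 (1 week) and 1.36 (2 weeks) on the log2 scale, where the median of all tested genes was -0.01 and -0.00. *Postn*, periostin of the infarct matrix, was at 1941 ± 62.1 FPKM *in vivo* and 176 ± 20.1 in culture at 1 week and at 1361 ± 111 and 115 ± 4.59 at 2 weeks. *Ltbp1*, which holds latent TGF-β in the matrix, was higher by 3.04 and 3.0 on the log2 scale, and *Tnn*, tenascin W, by 4.83 and 3.88. *Fn1*, the fibronectin bound by alpha 5 beta 1, was among the genes called higher at both weeks, and *Spp1*, osteopontin, was called lower at 2 weeks. The study names *Spp1* among the fibroblast genes that were higher *in vivo*. Here the log2 change of *Spp1* was -0.33 at 1 week, not called, and -2.27 at 2 weeks.

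The lists of other receptors and of intracellular adaptors had medians nearer 0. Of 24 laminin receptors other than integrins and members of the dystrophin complex, 23 were tested, with 2 higher and 2 lower after 1 week, 3 higher and 3 lower at 2 weeks, and medians of 0.02 and 0.20. The shares called, 17.4% and 26.1%, stand beside 12.9% and 17.1% of all tested genes. *Sgcd*, delta-sarcoglycan, was higher by 1.95 and 3.05 on the log2 scale and *Sdc3*, syndecan 3, by 1.51 and 1.29. *Bcam*, a receptor for the laminin alpha 5 chain, was lower, at -1.08 and -1.34 on the log2 scale, at 14.8 ± 1.94 FPKM *in vivo* and 31.2 ± 0.120 in culture at 1 week and 27.0 ± 0.158 and 68.3 ± 0.711 at 2 weeks. *Dtna*, dystrobrevin alpha, was lower, at -1.5 and -1.48. Of 37 integrin adhesion adaptors, 36 were tested, with 3 higher and 1 lower after 1 week, 3 higher and 3 lower at 2 weeks, and medians of -0.14 and -0.17. With 11.1% and 16.7% called, beside 12.9% and 17.1% of all tested genes, this list was near the background, and its called genes are named as single genes. Called higher at both weeks were *Itgbl1* (3.34 and 3.50), a secreted relative of the beta chains, *Nedd9* (1.78 and 2.23), a Cas-family scaffold, and *Tln2* (1.48 and 2.31), the talin 2 that links integrins to actin. *Itgb1bp2*, the muscle protein melusin, was lower, at -1.81 and -3.67. For the genes of these lists a call means a limma adjusted p below 0.01 and a log2 change beyond 1, as for the members.

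**Figure D4:**
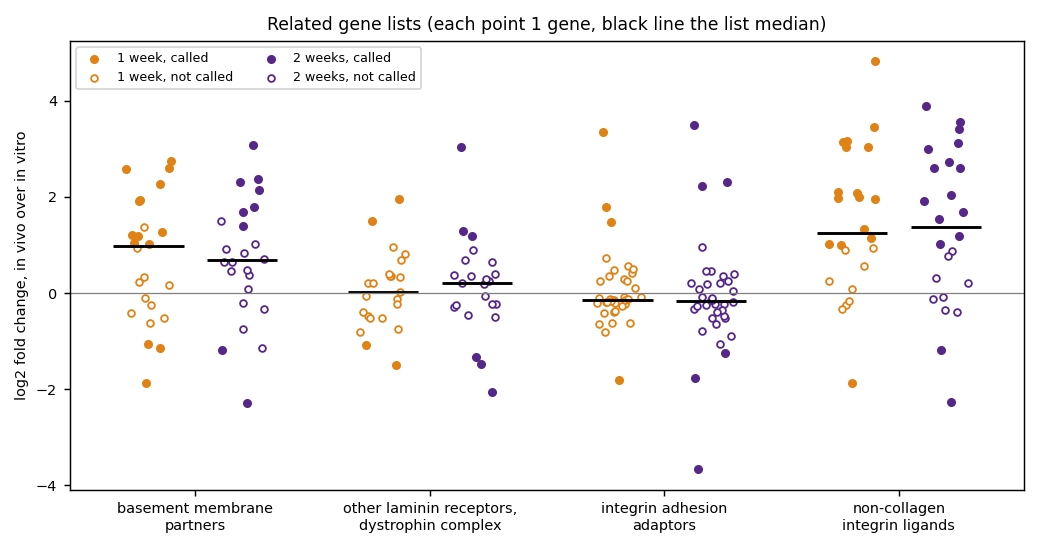
log2 fold change, *in vivo* over *in vitro*, of the tested genes of 4 related lists at 1 week (orange) and 2 weeks (purple), filled where called, each point 1 gene and the black line the list median. The medians are 0.98 and 0.68 for basement membrane partners, 0.02 and 0.20 for other laminin receptors, -0.14 and -0.17 for adhesion adaptors and 1.24 and 1.36 for non-collagen ligands.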

How the data were processed

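RNA from eGFP+ cells sorted from hearts and from cultured cells (8 samples) was made into mRNA libraries, sequenced and mapped by a provider. The submitters' processing notes name CASAVA, HISAT2 2.0.5 and mm10, and the counting tool is not given in the sources used here. The values are the FPKM that the authors deposited. The products of FPKM and gene length were whole multiples of 1 step in each library (100% of values, tolerance 0.01 fragments), which gave the fragments. The library size behind the FPKM was 0.863 to 0.915 times the recovered fragments *in vivo* and 1.09 to 1.15 times *in vitro*, so a scaling between libraries is already in the values.

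log2(FPKM + 0.1) was fitted with limma 3.58.1 (R 4.3.3) over 4 groups with an intensity trend, on genes reaching 0.5 FPKM in 2 or more libraries, with Benjamini-Hochberg adjustment. The test used in the study's methods takes counts, and it was not run on the recovered fragments. The members and gene lists were chosen with earlier results of these data known. Values per library are given for members called in either *in vivo* against *in vitro* comparison or among the 12 of highest mean level, others as ranges. Of each related list, the genes called the same way at both weeks with the largest changes are named, up to 3 each way. *Fn1*, *Spp1*, *Krt14*, *Pln*, *Cd4*, *Treml1*, *Lyz2* and the fibroblast markers were named after their values were seen. The values of 1 tested member are not reported here, although it enters the counts and medians over members. Replicate numbers did not pair the libraries (correlation of deviations -0.020 at 1 week and -0.022 at 2 weeks). Intervals from fragments cover counting error only. Alternatives were other pseudocounts, filters, scalings, thresholds, gene sets and variance models, limma voom, a replicate block, the compared libraries alone and each library left out. The script was tested on simulated data. Python 3.11.15, numpy 2.4.6, pandas 2.3.3, scipy 1.17.1 and matplotlib 3.10.9 were used.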

Additional observations from a re-analysis of the deposited data

Results flagged for a closer look

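For 2 members the *in vivo* effect changed from 1 week to 2 weeks, by limma's interaction contrast with Benjamini-Hochberg adjustment. For *Itga11* it was 1.39 (1 week) and 2.68 (2 weeks) on the log2 scale, a difference of 1.28 ± 0.17 (SE, limma adjusted p = 0.0074). For *Lamb1* it was 1.35 (1 week) and 0.33 (2 weeks), a difference of -1.02 ± 0.11 (limma adjusted p = 0.0048). With 1 library left out the difference of *Itga11* lost its call in all 8 fits (limma adjusted p 0.013 to 0.035) and that of *Lamb1* in 7 of 8 (0.0094 to 0.024). With 2 libraries per group, single samples far from their group could not be looked for.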

How the results depend on the processing

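Of the calls, those of *Itga11*, *Itga3*, *Itga8*, *Lama2*, *Nid1* and *Nid2* at both weeks, *Itga5*, *Lama5* and *Lamb1* at 1 week, and *Itgb5* and *Lamc1* at 2 weeks held under every alternative run. With a pseudocount of 1, 5 members were called higher at 1 week and 1 member between the weeks. Of all 15708 tested genes, 921 and 300 were called there. With no minimum fold change the counts were 13 higher and 7 lower at 1 week, 15 higher and 7 lower at 2 weeks, 5 in culture over time, 6 *in vivo* over time and 5 between the weeks. At an adjusted p under 0.05 there were 6 lower at 1 week, 2 in culture over time and 3 between the weeks. Calls at these looser thresholds were not counted over all tested genes. limma voom on fragments called 6 lower at 1 week, 4 in culture over time and 3 between the weeks, and 6 were called lower at 1 week without scaling. Of all tested genes, limma voom called 938, 863 and 473 in the same comparisons, and 1558 were called lower at 1 week without scaling. With the compared libraries alone, 0 were called in culture over time and 6 higher at 2 weeks, beside 0 and 1027 of all tested genes. Without the filter or without the variance trend, 0 were called between the weeks, beside 72 of 28005 and 71 of 15708 tested genes.

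With the replicate block, each week had 8 members called higher and 4 called lower. Among all 15708 tested genes, that fit gave 1032 higher calls and 586 lower calls for 1 week. For 2 weeks it gave 1223 and 1039. Over time and between the weeks 0 members were called. Of all tested genes, 256 were called over time in culture, 24 over time *in vivo* and 1 between the weeks. With so few genes called there, 0 among the members says little about them. Leaving out 1 library left 1 sample in a group, and the number of members called in each comparison depended on which library was left out. Such counts are not given, since the spread is then estimated from fewer libraries for every tested gene. In these fits the log2 fold change at 2 weeks ran from 2.05 to 2.24 for *Nid1*. It ran from 2.87 to 4.10 for *Itgb7* and from -2.79 to -1.51 for *Lamc3*, both low genes. Direction reversed for *Itgb1* under quantile normalization (-0.52 at 1 week and -0.15 at 2 weeks) and without scaling (-0.14 at 1 week), for *Itgb5* at 1 week under quantile normalization (-0.12), and for *Itgb2* at 2 weeks without *in vivo* 2w replicate 2 (values from -0.42 to 0.038 as 1 library was left out). The cause was not tested. Genes under about 1 FPKM, *Itgb4*, *Itgb7* and *Lamc3*, are limited by depth.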
